A study of Mus musculus with 4 samples.

Results

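The 9 genes described here mark spermatogonia by their receptors, adhesion proteins or cytoplasmic proteins and were followed by Ribo-seq in sorted mouse spermatocytes. The receptors were *Kit*, *Ret* and *Gfra1*, the adhesion genes were *Epcam* and *Cdh1*, and the cytoplasmic genes were *Uchl1*, *Crabp1*, *Lin28a* and *Nanos3*. They are 9 of the 11598 genes in the table, taken by gene symbol, and all 9 are listed there. The genes were chosen by their values in these same 4 libraries, the difference in FPKM between genotypes being already known. Their folds, intervals and calls are therefore a description of the libraries, and no p is given for them.

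The values come from Ribo-seq, which counts ribosome-protected fragments (RPFs), the stretches of mRNA inside ribosomes that RNase I cannot digest. The cells were leptotene/zygotene spermatocytes, sorted by FACS from testes of mice at 12 dpp, with 2 libraries of control and 2 of *Eef1g*-cKO. *Eef1g* encodes the gamma subunit of a translation elongation factor complex. In *Eef1g*-cKO mice, made on a C57BL/6J background, *Stra8*-GFPCre removes several exons of *Eef1g* in male germ cells, with recombination from type A1 spermatogonia onward, so earlier spermatogonia and somatic cells keep the gene. The labels give the control genotype as wild type, and whether controls carried the floxed allele or Cre is not given in the sources used here. No agent was given to either group in the labels, and how many animals went into a library is not stated.

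Male germ cells enter meiosis from differentiating spermatogonia. Undifferentiated spermatogonia receive the ligand GDNF through RET and its co-receptor GFRA1, and differentiating spermatogonia depend on the receptor tyrosine kinase KIT, which responds to KIT ligand from Sertoli cells. Retinoic acid drives this step and induces *Stra8* before cells pass through leptotene, where chromosome axes form, and zygotene, where homologs begin to synapse. These genes are used as markers of the stages before that passage, although EPCAM is a surface protein of many germ cells and epithelia.

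The start of translation is the position at which the ribosomes measured here begin to read, so the bases around the start codon are shown for the 4 genes with the most reads and for *Lin28a*, which had 3 reads in all in *Eef1g*-cKO. Each line gives 9 bases before the start codon, the start codon in capitals and 18 bases after it, 5′ to 3′, from GENCODE M21 transcripts on GRCm38.
Kit: gccaccgcgATGagaggcgctcgcggcgcc
Uchl1: tccgcgaagATGcagctgaagccgatggag
Crabp1: actgccaccATGcccaacttcgccggtacc
Epcam: gcgcgcagcATGgcgggtccccaggccctc
Lin28a: cagacgaccATGggctcggtgtccaaccag
The start codon lies in exon 1 of each of these transcripts, at chr5:75575052-75575054 for *Kit*, chr5:66676290-66676292 for *Uchl1*, chr9:54764902-54764904 for *Crabp1* and chr17:87636819-87636821 for *Epcam*, all on the plus strand, and at chr4:134018739-134018741 on the minus strand for *Lin28a*. An A or G stood 3 bases before the start codon in all 8 genes that have bases annotated before it, against 86.8% of the 10650 genes of the table with such bases. A G directly after the start codon, the other base of the vertebrate initiation context, was present in 5 of the 9 genes, against 53.6% of genes. Of the printed genes, *Epcam* and *Lin28a* have it, and *Kit*, *Uchl1* and *Crabp1* do not. The share of G or C at the third codon position was 73.8% in *Lin28a*, 72.5% in *Crabp1*, 71.0% in *Uchl1*, 63.6% in *Epcam* and 59.9% in *Kit*, and its median over the 9 genes was 67.0% against 60.6% over 10813 genes with a coding sequence.

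Depth differed between the genotypes, with 2479504 and 1384282 reads counted on genes in control replicates 1 and 2 and 223906 and 407979 in *Eef1g*-cKO replicates 1 and 2. A count of 0 allows up to 3 reads at 95% confidence, or 13.4 and 7.35 reads per 1000000 in the *Eef1g*-cKO libraries and 1.21 and 2.17 in control. These limits cover counting error only, since reads copied by PCR are counted as if they were separate molecules. The targeted gene itself had 107 and 58 reads in control against 0 and 4 in *Eef1g*-cKO. FPKM, the authors' reads per kilobase of gene length per 1000000 counted reads, divides by the length of the whole gene, although RPFs fall mainly on the coding sequence, so levels of different genes are compared per kilobase of coding sequence as well, and folds are given on the scale of log2(FPKM + 1) with limma's standard error (SE).

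*Uchl1*, *Kit*, *Crabp1* and *Lin28a* were lower in *Eef1g*-cKO than in control, and *Epcam* was higher. *Ret* was also lower in both *Eef1g*-cKO libraries, with 3 reads in all. *Gfra1*, *Nanos3* and *Cdh1* had too few reads to be placed. All 9 genes together took 2375 and 2780 reads per 1000000 in control against 839.6 and 811 in *Eef1g*-cKO, with means of 2577 ± 286 and 825 ± 20.0 (SD, n = 2 each), a 3.12-fold difference. Without *Epcam* the sums were 2132 and 2544 in control against 255 and 314 in *Eef1g*-cKO, an 8.23-fold difference. RPF reads were not set against RNA levels here. In a bulk sample such as this, a change in cells of a type, in RNA per cell or in ribosomes per mRNA therefore cannot be told apart.

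**Figure D1:**
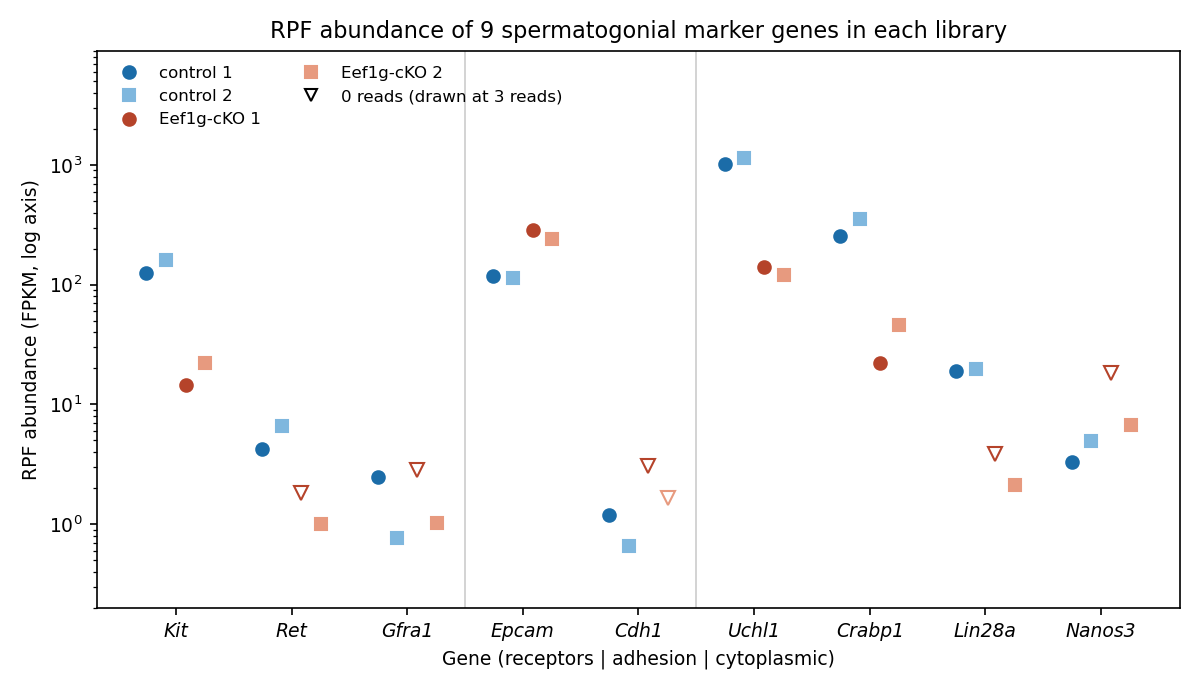
RPF abundance in FPKM, on a log axis, of the 9 genes in each of the 4 libraries, with receptors at the left, adhesion genes in the middle and cytoplasmic genes at the right. Open triangles stand for libraries with 0 reads and are drawn at the FPKM of 3 reads. The control libraries lie above the *Eef1g*-cKO libraries for *Kit*, *Uchl1* and *Crabp1* and below them for *Epcam*.

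Among the receptors, *Kit* lies on chr5:75574987-75656722 of GRCm38. The control libraries held 1615 and 1146 of its reads and the *Eef1g*-cKO libraries 17 and 47, which is 126 and 159.8 FPKM against 14.7 and 22.2 FPKM. The groups did not overlap, and the lower control library stood well above the higher *Eef1g*-cKO library. The means were 143 ± 24.1 FPKM in control and 18.4 ± 5.36 FPKM in *Eef1g*-cKO (SD, n = 2 each), with a log2 fold change of −2.90 (SE 0.29). Taken as reads per 1000000, pooled over the libraries of a genotype, *Kit* was 7.06-fold lower, with an exact 95% counting interval of 5.51 to 9.19. *Kit* moved from rank 541 and 498 by FPKM among the 11598 genes in control to rank 4091 and 3060 in *Eef1g*-cKO.

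*Ret*, the signalling receptor for GDNF, lies on chr6:118151748-118197744. It had 77 and 67 reads in control against 0 and 3 in *Eef1g*-cKO, or 4.23 and 6.59 FPKM against 0 and 1.00 FPKM. Both control libraries lay above both *Eef1g*-cKO libraries. At the control rate, 8.34 and 15.2 reads would fall in the *Eef1g*-cKO libraries, and the pooled ratio of *Eef1g*-cKO to control was 0.127 (exact 95% counting interval 0.0260 to 0.380). *Gfra1*, the co-receptor that binds GDNF beside RET, lies on chr19:58235581-58455946 and had 29 and 5 reads in control against 0 and 2 in *Eef1g*-cKO. Its FPKM was 2.46 and 0.760 in control against 0 and 1.03 in *Eef1g*-cKO, so the groups overlapped. The ratio of 0.360 had a counting interval of 0.0419 to 1.40, and a difference was not detectable at this depth. The control libraries themselves differed for *Gfra1*, replicate 2 being at 0.309 of replicate 1 in reads per 1000000 (exact 95% counting interval 0.0933 to 0.807).

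Of the adhesion genes, *Epcam*, which encodes a transmembrane adhesion glycoprotein, was the exception in direction. It lies on chr17:87635979-87651127. It had 602 and 327 reads in control against 131 and 203 in *Eef1g*-cKO, or 118 and 115 FPKM against 284 and 241 FPKM. Both *Eef1g*-cKO libraries were above both control libraries, and the spread within each genotype was small beside the gap. The means were 116 ± 2.25 FPKM in control and 263 ± 30.0 FPKM in *Eef1g*-cKO (SD, n = 2 each), which gave a log2 fold change of 1.16 (SE 0.20), and the pooled ratio in reads per 1000000 was 2.20 (exact 95% counting interval 1.93 to 2.49). *Cdh1*, which encodes E-cadherin, the calcium-dependent adhesion protein of epithelia and of undifferentiated spermatogonia, lies on chr8:106603350-106670247 and had 13 and 4 reads in control against 0 in both *Eef1g*-cKO libraries. At the control rate 0.985 and 1.80 reads would fall in them, below the limit that a count of 0 allows, so no fold is given and a difference was not detectable at this depth. *Cdh1* was below the mean of 1 FPKM used for the fit and was the gene of the 9 that was not tested.

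*Uchl1*, a deubiquitinating hydrolase that is abundant in spermatogonia and neurons, was the gene of the 9 with the most reads in control. It lies on chr5:66676121-66687234. It had 2874 and 1807 reads in control against 36 and 56 in *Eef1g*-cKO, or 1011 and 1138 FPKM against 140.2 and 119.7 FPKM. The groups were far apart relative to the spread within them. The means were 1074 ± 90.2 FPKM and 129.9 ± 14.5 FPKM (SD, n = 2 each), which gave a log2 fold change of −3.04 (SE 0.21), and the pooled fold in reads per 1000000 was 8.32 lower (exact 95% counting interval 6.77 to 10.3). An antisense gene, *Uchl1os*, shares 295 exon bases with *Uchl1* on the opposite strand, and the strand setting of the counting is not given in the sources used here. *Uchl1os* had 6 and 8 reads in control against 0 in both *Eef1g*-cKO libraries, few beside those of *Uchl1*, though without strand the reads of the shared bases cannot be told apart.

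*Crabp1*, which binds retinoic acid in the cytoplasm, lies on chr9:54764748-54773110. It had 507 and 392 reads in control against 4 and 15 in *Eef1g*-cKO, or 255 and 353 FPKM against 22.3 and 45.8 FPKM. Both *Eef1g*-cKO libraries were below both control libraries, and the ratio between them, replicate 2 over replicate 1, was 2.06 in reads per 1000000 (exact 95% counting interval 0.656 to 8.52). The means were 304 ± 69.4 FPKM and 34.1 ± 16.7 FPKM (SD, n = 2 each), which gave a log2 fold change of −3.19 (SE 0.38). The pooled fold was 7.74 lower, with a counting interval of 4.93 to 12.9.

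*Lin28a*, an RNA-binding protein that blocks maturation of let-7 microRNAs, lies on chr4:134003330-134019196. It had 165 and 95 reads in control against 0 and 3 in *Eef1g*-cKO, or 19.1 and 19.7 FPKM against 0 and 2.11 FPKM. The control libraries were close to each other and above both *Eef1g*-cKO libraries. At the control rate 15.1 and 27.5 reads would fall in the *Eef1g*-cKO libraries, and the pooled ratio was 0.0706 (exact 95% counting interval 0.0145 to 0.208). *Nanos3*, which encodes a translational repressor of germ cells, lies on chr8:84173733-84176552 and had 6 and 5 reads in control against 0 and 2 in *Eef1g*-cKO. Its FPKM was 3.31 and 4.95 in control against 0 and 6.72 in *Eef1g*-cKO, and the groups overlapped. The ratio of 1.11 had a counting interval of 0.120 to 5.09, which leaves either direction possible.

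**Figure D2:**
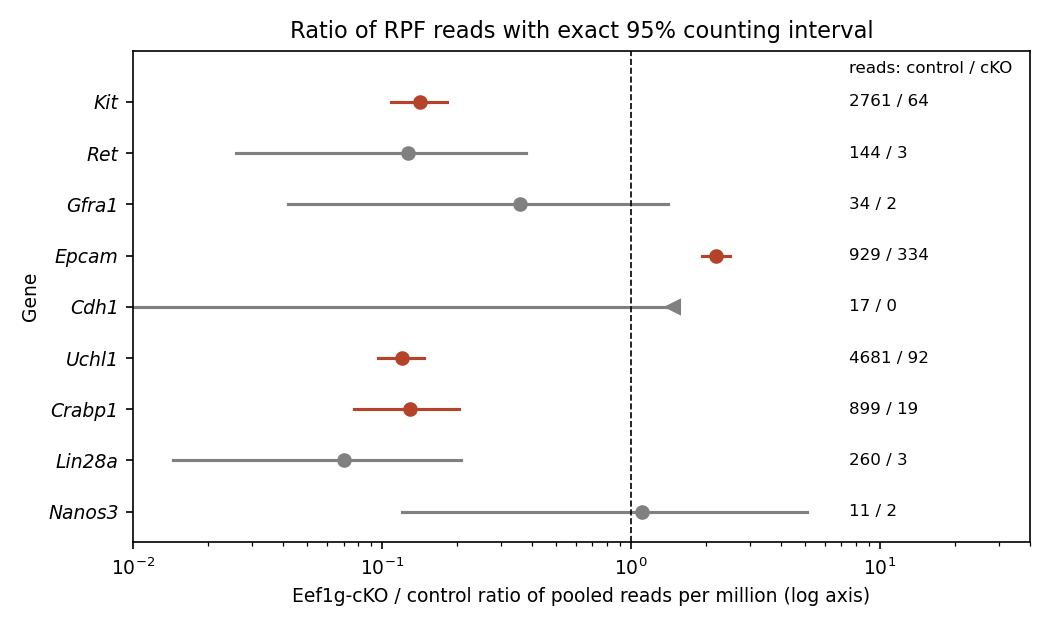
Ratio of *Eef1g*-cKO to control in reads per 1000000, pooled over the 2 libraries of each genotype, with its exact 95% counting interval, on a log axis, and the pooled reads at the right. Grey genes have 1 to 3 *Eef1g*-cKO reads, and the grey arrow of *Cdh1*, with 0, marks only an upper limit of 1.48. The intervals of *Kit*, *Ret*, *Uchl1*, *Crabp1* and *Lin28a* lie below 1, that of *Epcam* lies above 1, and those of *Gfra1* and *Nanos3* span it.

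In limma, 4 of the 8 tested genes passed as lower at a fold beyond 1 on the log2 scale and an adjusted p under 0.05, where 4.97% of the 10475 tested genes did. These were *Kit*, *Uchl1*, *Crabp1* and *Lin28a*. *Epcam* was the 1 gene that passed as higher, where 2.87% of all tested genes did. By unadjusted p 5 genes passed as lower, *Ret* being the added one (16.3% of all), and 1 as higher (7.32% of all). In edgeR on the recovered reads, 5 of the 6 genes tested were lower (11.2% of 8056 genes) and 1 was higher (8.75%). Both *Eef1g*-cKO libraries lay below both control libraries for 5 of the 8 tested genes (37.7% of all) and above for 1 (24.6% of all). The median log2 fold change of the 8 tested genes was −2.53, beside −0.23 over all tested genes, and −1.90 with the 4 tested genes that had at most 3 reads in each *Eef1g*-cKO library set to 3 reads there. As the genes were chosen on this contrast, nothing is read from these counts, and genes that passed the filter through their control level alone had to be lower. The calls of lower genes by adjusted p did not hold when either control library was left out, which leaves 1 control library. The share of all tested genes called in such fits was not taken. With control replicate 1 left out the log2 fold change was −3.13 for *Uchl1*, −3.08 for *Kit*, −3.42 for *Crabp1* and 1.18 for *Epcam*, and with control replicate 2 left out it was −2.95, −2.73, −2.95 and 1.15, so the directions did not change. Without *Eef1g*-cKO replicate 1, the call for *Epcam* was lost and its log2 fold change was 1.05.

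The order of the genes by FPKM differed between the genotypes. In control it ran from *Uchl1* through *Crabp1*, *Kit*, *Epcam* and *Lin28a* to *Ret*, *Nanos3*, *Gfra1* and *Cdh1*. The ranges of the 2 libraries overlapped for *Ret* and *Nanos3* and for *Gfra1* and *Cdh1*, and other neighbours were apart. Per kilobase of coding sequence and 1000000 reads, *Kit* was at 222 and 282 and *Epcam* at 256 and 249 in control, so these neighbours also overlapped on that scale, as did *Nanos3* and *Gfra1*. In *Eef1g*-cKO *Epcam* came first, followed by *Uchl1*, *Crabp1* and *Kit*. *Crabp1* and *Kit* could not be ordered there, as the lower *Crabp1* value of 22.3 FPKM rested on 4 reads and the higher *Kit* value was 22.2 FPKM. The other 5 genes had 0 to 3 reads per library, and neighbours among them could not be ordered.

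The ratios among the genes within a library do not depend on how libraries are scaled. There were 0.562 and 0.634 *Kit* reads for each *Uchl1* read in control (exact 95% intervals 0.528 to 0.597 and 0.588 to 0.683) and 0.472 and 0.839 in *Eef1g*-cKO (0.249 to 0.863 and 0.557 to 1.26). *Crabp1* reads for each *Uchl1* read were 0.176 and 0.217 in control against 0.111 and 0.268 in *Eef1g*-cKO, the last with an interval of 0.141 to 0.480. For these pairs the *Eef1g*-cKO libraries lay on both sides of the control libraries. *Epcam* differed from them, with 0.373 and 0.285 reads for each *Kit* read in control against 7.71 and 4.32 in *Eef1g*-cKO (intervals from 3.13 to 13.6). For each read of *Sycp3*, a leptotene/zygotene marker, there were 0.267 and 0.294 *Epcam* reads in control against 0.235 and 0.249 in *Eef1g*-cKO. *Sycp3* is 1 of 26 such markers in the table. Their log2 fold changes ran from −1.14 for *Rec114* to 2.29 for *Hormad1*, so ratios to other markers differ from those to *Sycp3*. *Kit* reads for each *Sycp3* read were 0.716 and 1.03 in control against 0.0305 and 0.0577 in *Eef1g*-cKO. Those of *Uchl1* were 1.27 and 1.625 against 0.0646 and 0.0688. Of all reads on the 9 genes, *Uchl1* held 48.8% and 47.0% in control against 19.1% and 16.9% in *Eef1g*-cKO. *Epcam* held 10.2% and 8.50% in control against 69.7% and 61.3% in *Eef1g*-cKO, with exact binomial 95% intervals of 62.6% to 76.2% and 55.8% to 66.6%.

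**Figure D3:**
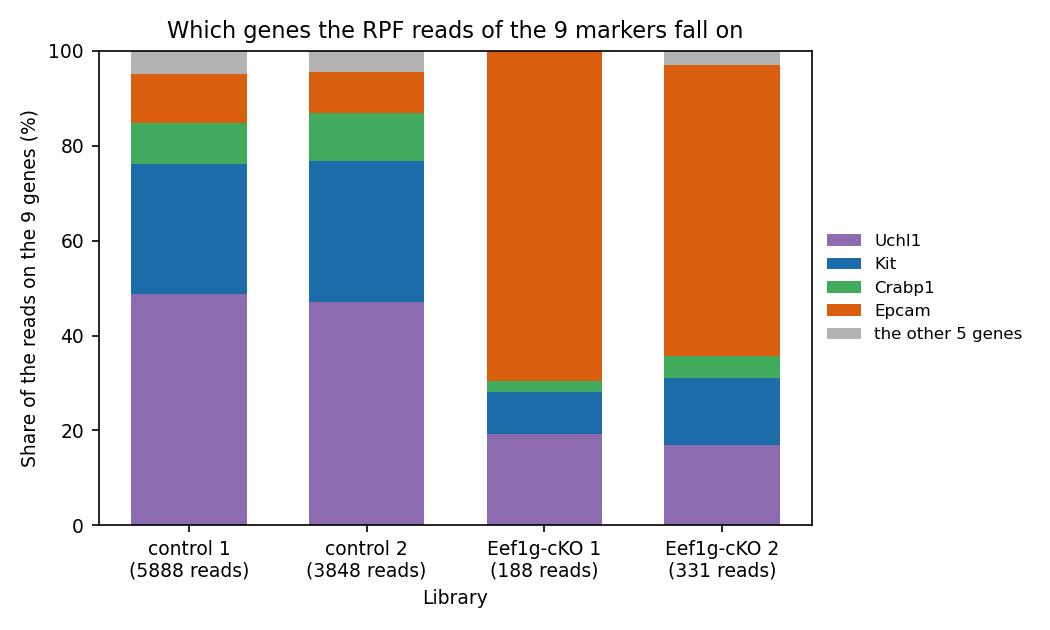
Share in percent of the RPF reads on the 9 genes that fell on *Uchl1*, *Kit*, *Crabp1*, *Epcam* and the other 5 genes, as stacked bars for each library, with the reads behind each bar under its name. *Epcam* holds 10.2% and 8.50% in control against 69.7% and 61.3% in *Eef1g*-cKO.

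Other markers of germ cell stages were read beside these values. Of 29 other spermatogonial markers, 22 are in the table, and their summed reads per 1000000 were 2925 and 3636 in control against 1581 and 1527 in *Eef1g*-cKO. Of the 20 tested, 10 passed as lower by adjusted p in limma and 0 as higher by either p, against 11 and 0 of 16 in edgeR. Over all tested genes 4.97% passed as lower in limma and 11.2% in edgeR. The marker lists were written with earlier results of these data known, so their counts are a description. Their median log2 fold change was −1.65, or −1.27 with 6 low genes set to 3 reads in each *Eef1g*-cKO library. For 2 of the 22 the *Eef1g*-cKO libraries were both above the controls, *Rhox13* (173 FPKM in control and 316 FPKM in *Eef1g*-cKO in the mean, log2 fold change 0.90) and *Taf4b* (0.41), and neither passed the adjusted p. *Dmrt1*, a transcription factor of spermatogonia, was among those that passed, with 1109 and 806 reads in control against 30 and 55 in *Eef1g*-cKO (limma adjusted p = 0.0233). Of 28 leptotene/zygotene markers, which define the sorted stage, 26 are in the table and none is at 0 in any library. Their summed reads were 8332 and 7757 per 1000000 in control against 18945.5 and 17846.5 in *Eef1g*-cKO. *Tex101* had the most reads of the list in every library, with 4796 and 3342 in control against 1433 and 2271 in *Eef1g*-cKO. It did not pass in limma (log2 fold change 1.47, adjusted p = 0.0519). By adjusted p 10 of the 26 passed as higher in limma (2.87% of all tested genes) and 14 of 25 in edgeR (8.75% of all). The 1 gene called in the other direction was *Rec114*, lower by unadjusted p in limma and by adjusted p in edgeR, with 178 and 141 reads in control against 9 and 15 in *Eef1g*-cKO (log2 fold change −1.14, limma adjusted p = 0.0518). Their median log2 fold change was 0.95. Of 10 pachytene markers, the stage after zygotene, 6 are in the table, at 516 and 381 reads per 1000000 in control against 1331 and 1194 in *Eef1g*-cKO. Most of these reads in every library fell on *Hist1h1t*, a testis histone H1 gene, with 707 and 306 in control against 240 and 406 in *Eef1g*-cKO. It passed as higher (344 against 1406 FPKM in the mean, log2 fold change 2.04, limma adjusted p = 0.0236). No other pachytene marker passed by adjusted p in limma, and *Piwil1* was lower by unadjusted p alone, with 80 and 16 reads against 1 and 2.

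Somatic markers were also read. Over all tested genes 16.3% were lower by unadjusted p in limma and 11.2% by adjusted p in edgeR. Of 18 Sertoli markers, 14 are in the table, with 1626 and 680.5 reads per 1000000 in control against 871 and 699 in *Eef1g*-cKO, and 0 of them passed by adjusted p in limma in either direction (3 as lower by unadjusted p, and 3 of 7 tested in edgeR). Control replicate 1 stood above the other 3 libraries, and *Clu* had the most reads of the list there. Its reads were 2052 and 241 in control against 37 and 48 in *Eef1g*-cKO. Among the defining Sertoli genes, *Gata4* had 27 and 6 reads in the deeper control libraries and 0 in both *Eef1g*-cKO libraries, which set only an upper limit. *Wt1* had 46 and 11 against 0 and 2, and *Sox9* had 47 and 18 against 2 and 2. With more reads in control, *Inha* had 141 and 42 against 8 and 8 (log2 fold change −0.62). *Amh* had 82 and 13 against 5 and 2 (log2 fold change −0.64). *Ctsl* held most of the Sertoli marker reads in *Eef1g*-cKO. It had 1337 and 525 reads in control against 137 and 218 in *Eef1g*-cKO, or 233 and 291 FPKM in the mean (log2 fold change 0.34), and did not pass. Of 7 peritubular markers, 5 are in the table, at 193 and 168 reads per 1000000 in control against 67.0 and 71.1 in *Eef1g*-cKO. In limma 0 passed by adjusted p and 2 were lower by unadjusted p, and in edgeR 2 were lower by adjusted p. Leydig markers (3 of 7 in the table) summed to at most 11.6 reads per 1000000 in a library and those of macrophages, endothelium and blood (3 of 14) to at most 14.5. The paper stained sorted cells for SYCP3 and γH2AX. It found most but not all of them to be leptotene/zygotene spermatocytes, at a comparable share in both genotypes. The part that the mixture of stages or cell types in the sort has in the differences of *Kit*, *Uchl1*, *Crabp1*, *Lin28a*, *Ret* and *Epcam* was not tested.

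**Figure D4:**
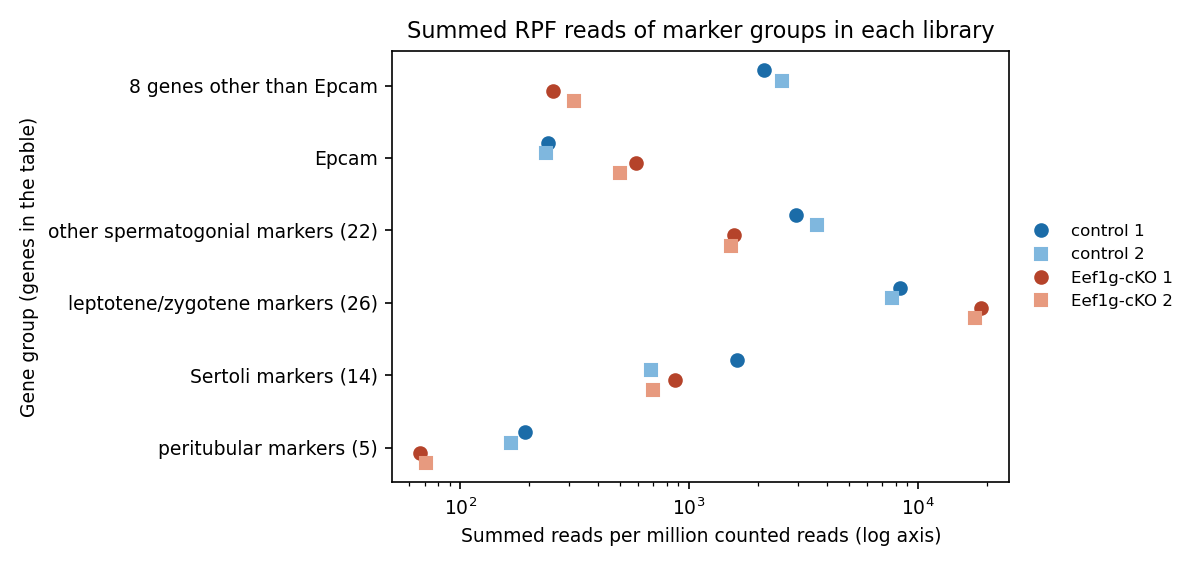
Summed RPF reads per 1000000 counted reads, on a log axis, for the 8 genes other than *Epcam*, for *Epcam* and for marker groups of other cells, with a point for each library and the number of genes in the table in brackets. The 8 genes lie at 2132 and 2544 in control against 255 and 314 in *Eef1g*-cKO, while the leptotene/zygotene markers and *Epcam* are higher in both *Eef1g*-cKO libraries.

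The other genes of each pathway were read from lists written for these 9 genes. Over all tested genes, 4.97% passed as lower and 2.87% as higher by adjusted p in limma, and 11.2% and 8.75% in edgeR. By unadjusted p in limma the shares were 16.3% and 7.32%. Of 19 genes of GDNF-RET signalling other than *Ret* and *Gfra1*, 14 were tested, and 0 passed by adjusted p in limma, where 1 was higher and 2 were lower by unadjusted p, and 1 of 12 was higher in edgeR. Their median log2 fold change was 0.12, or 0.25 with 3 low genes set to 3 reads in each *Eef1g*-cKO library. The ligand *Nrtn* had 0 and 13 reads in control against 0 in both *Eef1g*-cKO libraries, and the co-receptor *Gfra3* had 13 and 22 in control against 0 in both. Both therefore had only an upper limit in *Eef1g*-cKO, and the ligands *Gdnf*, *Artn* and *Pspn* were not analysed here. *Grb2*, an adaptor that RET and KIT share, had 200 and 225 reads in control against 29 and 61 in *Eef1g*-cKO, or 46.6 and 53.5 FPKM in the mean.

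Of 22 genes of KIT signalling other than *Kit*, 18 were tested and 0 passed by adjusted p in limma. By unadjusted p 1 was higher and 1 lower, and 1 was higher in edgeR. The median log2 fold change was 0.10. The gene called by edgeR was in both cases *Gab2*, a docking protein, with 44 and 34 reads in control against 19 and 17 in *Eef1g*-cKO. KIT ligand, *Kitl*, was not analysed here. *Mtor*, a kinase on this route, had 36.6 FPKM in control and 45.5 FPKM in *Eef1g*-cKO (limma log2 fold change 0.30, adjusted p = 0.484).

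Genes that make, carry or read retinoic acid, beside *Crabp1*, had a median log2 fold change of −0.98 over the 14 of 21 that were tested, and of 0.06 with 7 low genes set to 3 reads in each *Eef1g*-cKO library, so the sign of this median depends on genes with few reads. *Stra8*, induced by retinoic acid at the entry into meiosis, passed as lower with 939 and 508 reads in control against 41 and 57 in *Eef1g*-cKO (log2 fold change −1.21, limma adjusted p = 0.0379). *Stra8* also stands on the list of other spermatogonial markers and was counted there. *Rdh11*, a retinol dehydrogenase, passed as higher with 100 and 45 reads against 24 and 35 (log2 fold change 1.37, limma adjusted p = 0.0394). By unadjusted p 5 genes were lower and 2 higher, and in edgeR 2 of 8 were lower and 2 higher. The related binding protein *Crabp2* had 4 and 5 reads in control against 0 and 1 in *Eef1g*-cKO. Among the nuclear receptors, *Rara* had 22 and 19 reads in control against 1 in each *Eef1g*-cKO library. *Rarg* had 32 and 14 against 0 and 1, and *Rxra* 52 and 33 against 0 and 4. *Rxrb* had 101 and 68 against 14 and 18, or 16.2 FPKM in control and 19.3 FPKM in *Eef1g*-cKO in the mean. None of these 4 passed the adjusted p. *Stra6*, a membrane receptor for retinol-binding protein, had 12 and 10 reads in control against 2 and 0 in *Eef1g*-cKO.

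Of 16 adhesion genes other than *Epcam* and *Cdh1*, 12 were tested. Lower by adjusted p were *Mcam* (1424 and 984 reads in control, 43 and 100 in *Eef1g*-cKO), *Cd9* (192 and 138 against 9 and 12) and *Cldn3* (25 and 11 against 0 and 0), and 0 passed as higher, with 1 higher by unadjusted p and 0 in edgeR. For *Cldn3* the *Eef1g*-cKO reads set only an upper limit. *Mcam* and *Cd9* also stand on the list of other spermatogonial markers. *Mcam*, an immunoglobulin-family adhesion molecule, had a log2 fold change of −1.55 (limma adjusted p = 0.0307). *Cldn7*, a claudin that binds EPCAM, was the 1 higher by unadjusted p. It had 22 and 4 reads in control against 6 in each of the shallower *Eef1g*-cKO libraries. That is 4.05 against 14.3 FPKM in the mean (log2 fold change 1.67, limma adjusted p = 0.116), on few reads. The catenins *Ctnnb1*, *Ctnna1* and *Ctnnd1*, which link cadherins to actin, had log2 fold changes of 0.23, 0.33 and −0.28, and none passed.

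Of 23 partners of LIN28 and NANOS proteins, 18 were tested and 1 passed in limma, *Dnd1*, as lower, while edgeR also called 2 of 17 as higher, *Cnot6l* and *Zcchc6*. DND1 is an RNA-binding protein of germ cells that works with NANOS proteins, and it had 168 and 153 reads in control against 2 and 4 in *Eef1g*-cKO (log2 fold change −3.02, limma adjusted p = 0.0225). The paralog *Lin28b* had 53 and 7 reads in control against 8 and 11 in *Eef1g*-cKO, or 3.96 and 0.936 FPKM against 6.61 and 4.99 FPKM. Both *Eef1g*-cKO libraries were thus above both control libraries, unlike for *Lin28a*, but *Lin28b* did not pass (log2 fold change 1.12, limma adjusted p = 0.258). *Nanos1* had 22 and 34 reads in control against 1 and 0 in *Eef1g*-cKO. The CCR4-NOT scaffold *Cnot1* had a log2 fold change of 0.36 and did not pass. In the family of *Uchl1*, *Uchl3* was higher, with 70 and 56 reads in control against 28 and 35 in *Eef1g*-cKO (36.9 against 113 FPKM in the mean, log2 fold change 1.59, limma adjusted p = 0.0391), while *Uchl5* and *Bap1* had log2 fold changes of −0.20 and −0.19 and did not pass.

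**Figure D5:**
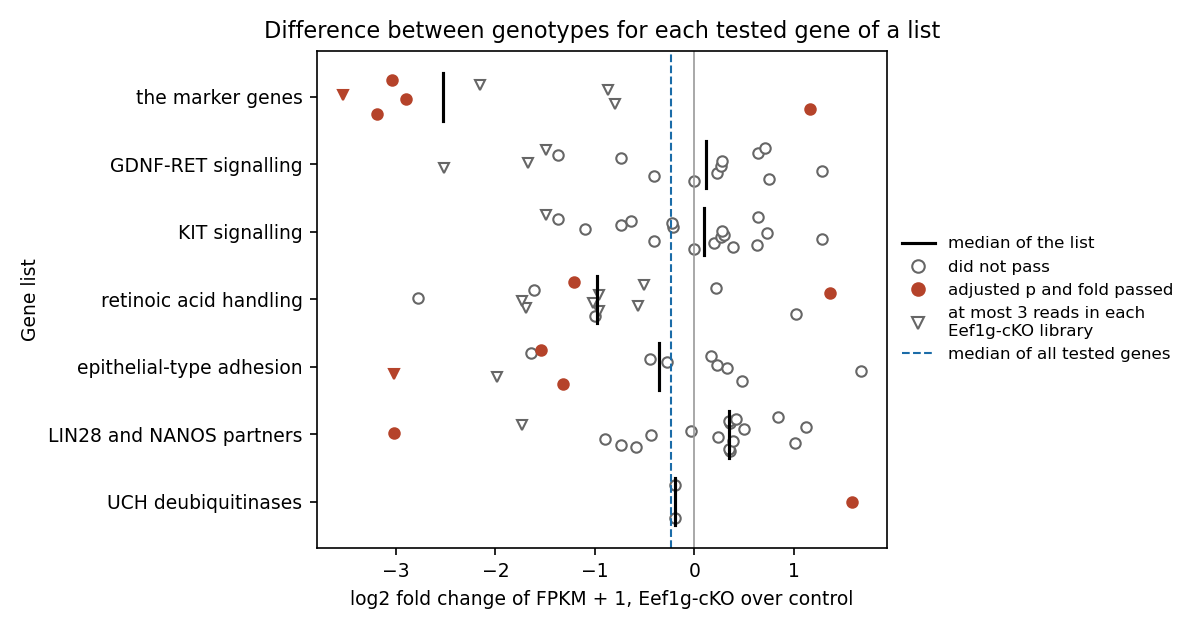
Log2 fold change of FPKM + 1 for each tested gene of a list, *Eef1g*-cKO over control, with the list median as a black bar and the median of all tested genes, −0.23, as a dashed line. Filled points passed the adjusted p and the fold threshold in limma, and triangles are genes with at most 3 reads in each *Eef1g*-cKO library, for which the fitted value is no bound. The marker genes have a median of −2.53 and the lists of GDNF-RET and KIT signalling have medians of 0.12 and 0.10.

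The genes whose levels were most like each marker over the 4 libraries were found by distance on log2(FPKM + 1), among 7080 genes whose mean reached 5 FPKM, for the 4 markers with over 3 reads in each *Eef1g*-cKO library. Beside *Kit* these were *Aprt*, *Pold1* and *Sh3bgrl3*, at distances of 0.47, 0.59 and 0.64. Beside *Crabp1* they were *Tubb5*, *Atpif1* and *Polr2e*, at 0.51, 0.60 and 0.73. The neighbours were not held to the limit of 3 reads. In *Eef1g*-cKO replicate 1, *Aprt* and *Atpif1* had 3 reads each and *Sh3bgrl3* had 2, so these distances rest on few reads. *Uchl1* had no gene as close, its nearest being *Tuba3a*, *Dbi* and *Actb* at 1.08, 1.31 and 1.32. Beside *Epcam* they were *Fam216a*, *Diablo* and *Nmd3*, at 0.20, 0.27 and 0.30. *Fam216a*, the closest of all, had 127 and 107 FPKM in control.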

How the data were processed

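Ribo-seq libraries of 2 control and 2 *Eef1g*-cKO samples were analysed, the replicates being independent biological ones per the series text. The submitters' processing notes list cutadapt, Bowtie, STAR and the builds mm10 and hg38 without roles, and the counter, annotation and strand setting are not given in the sources used here. The authors deposited FPKM, which equal reads per kilobase of gene length per 1000000 counted reads. The authors also deposited normalized counts, a signal in which each count is divided by a size factor per library. These are whole multiples of that step for 100% of values (tolerance 0.01 reads), which gave back the reads. The deposited columns of the authors' own comparison (mean count, log2 fold change, standard error, test statistic, p and adjusted p) were not used. Genes in the table have at least 10 reads over the 4 libraries.

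limma 3.58.1 (R 4.3.3) was fitted to log2(FPKM + 1), the prior variance following a trend on abundance, for the 10475 genes whose mean reached 1 FPKM, with Benjamini-Hochberg adjustment over all of them. A call needed a log2 fold change beyond 1 in size and p under 0.05. edgeR 4.0.16 (quasi-likelihood test) on the recovered reads called 904 genes lower and 705 higher by adjusted p, and DESeq2 1.42.0 was a further alternative. Scripts were tested on simulated data. Counting intervals are exact (Clopper-Pearson) and read limits use 3 reads. Tables were handled with Python 3.11.15, numpy 2.4.6, scipy 1.17.1 and pandas 2.3.3. Coordinates are those of RefSeq on GRCm38.p6 and start codons those of GENCODE M21. *Ret* has no bases before the start codon in the transcript used.

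The 9 genes and all lists were chosen with earlier results of these data known. All 9 are named. From the pathway lists, the ligand and receptor genes and the largest and smallest called fold changes are named by rule. *Grb2*, *Gab2*, *Mtor*, *Crabp2*, *Cd9*, *Cldn7*, the catenins, *Lin28b*, *Nanos1*, *Cnot1*, *Cnot6l*, *Zcchc6*, *Uchl5*, *Bap1*, *Dmrt1*, *Gata4*, *Wt1*, *Sox9*, *Inha*, *Amh*, *Ctsl*, *Clu*, *Rhox13*, *Taf4b*, *Sycp3*, *Tex101*, *Hormad1*, *Rec114*, *Hist1h1t* and *Piwil1* were added after their values were seen. Alternatives changed pseudocount, filter, centring, prior variance, depth, tool, replicate block and library; removal of a trend with GC content at codon position 3 was added after seeing the data.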

Additional observations from a re-analysis of the deposited data

How the results depend on the processing

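The count of 4 lower genes by adjusted p was 2 with a pseudocount of 0.1 FPKM, 0 with a prior variance without a trend and 0 with all libraries thinned to equal reads. Leaving out one library at a time gave 0 to 6. By unadjusted p the count of 5 lower genes ran from 3 to 6 in the same way. The causes were not tested. The call of *Epcam* as higher was lost under these 3 settings and without any library but *Eef1g*-cKO replicate 2, its log2 fold change running from 1.04 to 1.38 over 16 alternatives. Over the same alternatives the log2 fold change ran from −3.15 to −2.68 for *Uchl1*, from −3.19 to −2.62 for *Kit* and from −3.69 to −2.68 for *Crabp1*. The median log2 fold change of the tested genes was −1.48 with a pseudocount of 5 FPKM and ran from −3.08 to −2.14 when each library was left out. Removing the trend with GC content gave −2.28 and centring the libraries −2.32. The summed level was 2871 in control and 882 in *Eef1g*-cKO reads per 1000000 with *Rnu11* reads left out of the total, and 1345 and 676 without *Uchl1*.

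With the replicate number as a replicate block, 4 genes were lower by adjusted p and the median was −2.53, as without it. Libraries of the same number did not deviate together (correlation −0.00804), so the numbers were not taken to pair the samples. Depth limits *Gfra1*, *Nanos3* and *Cdh1*, for which the *Eef1g*-cKO libraries would hold under 4 reads each at the control rate.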
